A study of Mus musculus with 18 samples.

Results

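The transcripts of 10 receptor tyrosine kinase genes that are studied in melanoma, Egfr, Erbb2, Erbb3, Met, Ret, Axl, Kit, Pdgfra, Ntrk2 and Igf1r, were followed in 18 mouse melanoma allografts. The genes were taken by name, and every probe set (a group of short array probes that reads 1 transcript region) whose only gene symbol was one of these 10 was included. This gave 34 of the 45037 probe sets on the array and 10 of the 18193 genes with a symbol. The tumours grew from iNRAS-475, a single mouse melanoma cell line with an inducible NRAS oncogene that doxycycline keeps switched on. Nude mice carried the tumours in their skin. They have no mature T cells but keep macrophages, mast cells and NK cells, and all of them first drank doxycycline water at 2 mg/ml. At a volume of 200 to 500 mm3, after 6 weeks, doxycycline was withdrawn for 4 days (the NRAS-off tumours), the MEK inhibitor AZD6244 was given at 100 mg/kg for 4 days (the MEKi tumours), or vehicle was given (the vehicle tumours), with 6 distinct tumours in each group. Mouse ages were not given in the sources used here, and the sample labels gave no length for the vehicle treatment. Doxycycline itself was absent only in the NRAS-off group, so its effect and that of the oncogene cannot be told apart.

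Receptor tyrosine kinases span the cell membrane. For most of them, binding of a ligand joins receptor molecules into pairs, which phosphorylate each other. The signal passes to RAS and the RAF, MEK and ERK kinases below it, and to PI3 kinase. In melanoma, raised EGFR, ERBB3, MET, AXL, PDGFR or IGF1R signalling is known as a route by which cells tolerate inhibitors of the RAF and MEK kinases, and KIT is needed for the development of melanocytes. These receptors lie above RAS in the pathway, so both arms of the study act at or below RAS, downstream of them.

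The median intensities of the arrays lay between 72.3 and 78.5. The authors had brought the values to a common scale, so these medians do not measure array quality. The Pearson correlation of log2 values between tumours of 1 group lay from 0.9871 to 0.997. The main probe set of the mouse Nras gene averaged 1917 ± 59.5 in NRAS-off, 1992 ± 138 in MEKi and 2329 ± 125 in vehicle tumours (intensity, SD, n = 6 each). The labels do not say whether it reads the transgene, so it does not check the labels. Of 9 melanocytic markers 6 passed the filter on low values, among them the lineage factors Sox10 and Mitf, and Tyr, the key enzyme of pigment synthesis, did not. Of these 6, 4 rose in NRAS-off and 2 in MEKi tumours. The sum of the list was 9707 to 13080 in NRAS-off, 12460 to 17750 in MEKi and 9100 to 11190 in vehicle tumours. Most of this sum was Sox10 alone, at 7901 to 11280, 11500 to 16610 and 8258 to 10310 in these groups. One library stood apart: the summed intensity of 8 keratinocyte markers was 30350 in NRAS-off replicate 2, where the remaining NRAS-off tumours had 689 to 919; the range was 598 to 1279 in MEKi tumours and 539 to 744 in vehicle tumours. Without this tumour each of the 10 receptors kept its direction and its call in both comparisons that use the NRAS-off group, and the values that moved most are given below. Some markers of other host cells moved with the groups as well: all 8 endothelial and all 7 skeletal muscle markers rose in NRAS-off tumours, and in MEKi tumours 2 of 8 endothelial markers rose and 1 fell, while 7 of 7 muscle markers rose. Of 5 adipocyte markers 3 rose in NRAS-off and 1 in MEKi tumours, with sums of 11880 to 20150 in NRAS-off, 2436 to 4937 in MEKi and 1575 to 4110 in vehicle tumours. Of 7 pericyte and smooth muscle markers 4 rose and 1 fell in NRAS-off tumours, and 3 rose and 2 fell in MEKi tumours. Among all genes tested, 31.8% rose and 27.5% fell in NRAS-off tumours, and 24.3% rose and 20.9% fell in MEKi tumours. These shares stand beside every list count here and below, and counts near them say little about a list. The part of the host cells in the receptor results was not tested. Tumour and host are both mouse, so a probe set reads the transcripts of melanoma cells and of host cells together, and fewer cells of a type cannot be told apart from less RNA per cell.

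All 10 receptor genes passed the filter on low values and were tested with limma among 15005 genes, each gene by the probe set that had the highest mean. In NRAS-off against vehicle tumours Egfr, Ntrk2 and Kit rose and the other 7 fell, so that 10 of 10 passed an adjusted p of 0.05, beside 59.3% of all genes tested. In MEKi against vehicle tumours Igf1r, Egfr, Erbb2 and Erbb3 rose, Ret, Axl, Pdgfra and Kit fell, and Met and Ntrk2 did not pass. That is 8 of 10, beside 45.2% of all genes. Between the 2 treated groups Ntrk2, Egfr, Kit and Pdgfra were higher in NRAS-off tumours, Met, Erbb3, Igf1r, Erbb2 and Axl were lower, and Ret did not pass. That is 9 of 10, beside 47.0% of all genes. With shares of this size in the background, the counts say little about the receptors as a set, and the results lie in the direction and size of each gene. The median change of the 10 was −0.33, 0.16 and −0.13 in the 3 comparisons on the log2(intensity + 16) scale, against 0.00, 0.01 and −0.01 over all genes tested. The tumour ranges of the compared groups did not overlap for 7, 6 and 7 receptors, beside 39.2%, 25.5% and 28.3% of all genes. Calls with a change over 1 were made for 5, 1 and 2 receptors, beside 10.5%, 3.95% and 7.24% of all genes. Both comparisons with vehicle use the same 6 vehicle tumours. All changes below are on this log2 scale with their SE, levels are intensities of 1 probe set, and adjusted p values come from limma.

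**Figure D1:**
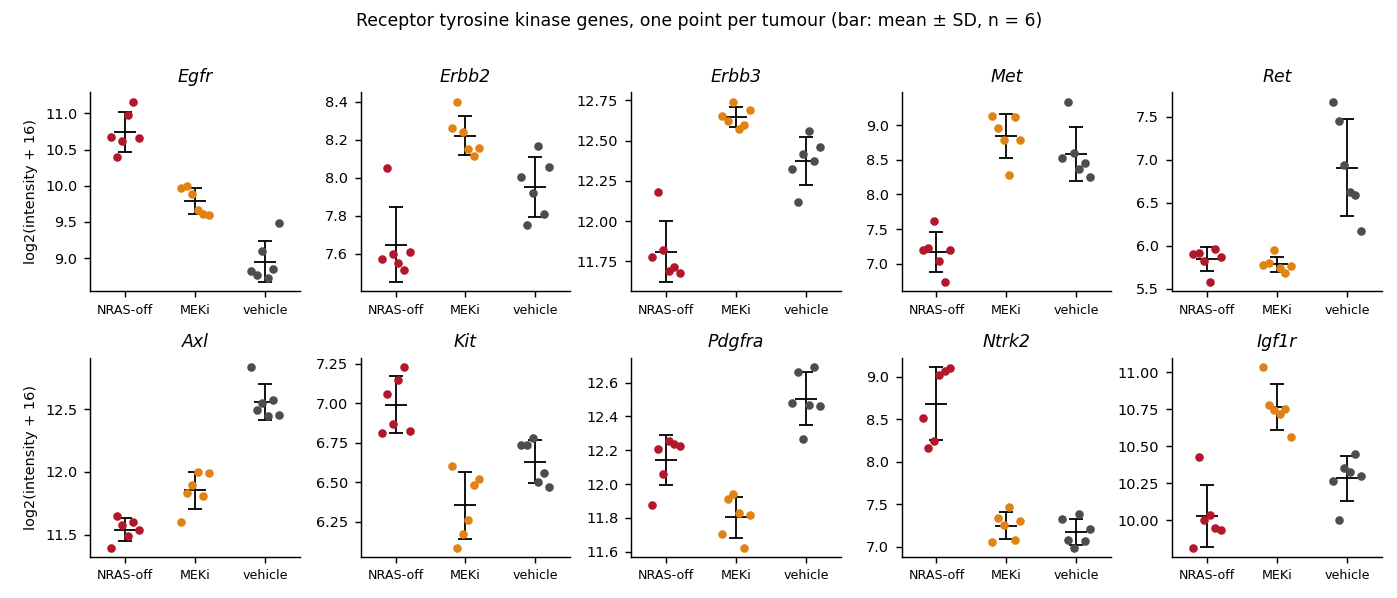
Level of each receptor gene, as log2(intensity + 16) of its main probe set, in NRAS-off, MEKi and vehicle tumours. Each point is a tumour, and bars give the mean and SD of 6 tumours. Egfr and Ntrk2 are highest and Met lowest in NRAS-off tumours, and Axl and Ret are highest in vehicle tumours.

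**Figure D2:**
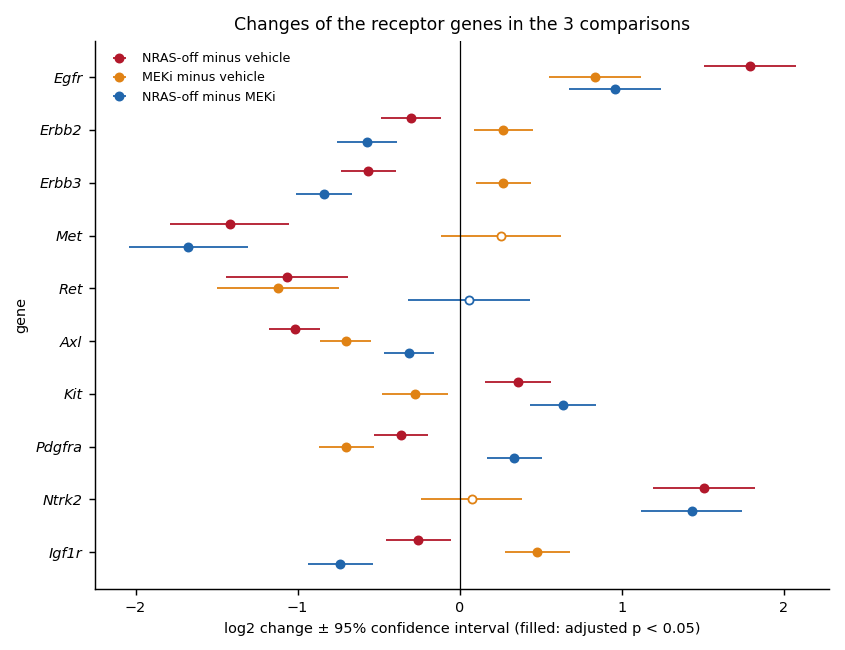
Change of each receptor gene (rows) in the 3 comparisons, as the log2 difference with its 95% confidence interval. Filled points passed an adjusted p of 0.05. Erbb2, Erbb3 and Igf1r lie left of 0 in NRAS-off minus vehicle and right of 0 in MEKi minus vehicle.

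Egfr, the receptor for EGF and related ligands, rose in both treated groups, and by the highest-mean probe sets its rise in NRAS-off tumours was the largest of the 10 genes. With the most variable probe set of each gene Ntrk2 rose more, by 2.66. The Egfr intensity ranged from 1329 to 2279 (median 1607) in NRAS-off tumours, from 760.1 to 1003 (median 863) in MEKi tumours and from 406 to 698 (median 439.6) in vehicle tumours. No range overlapped another, which puts every NRAS-off tumour above every MEKi tumour and every MEKi tumour above every vehicle tumour. Egfr rose by 1.79 ± 0.14 in NRAS-off against vehicle tumours (3.47-fold, adjusted p = 1.7e-09) and by 0.83 ± 0.14 in MEKi against vehicle tumours (1.78-fold, adjusted p = 5.63e-05). The direct difference between NRAS-off and MEKi tumours was 0.96 ± 0.14 (adjusted p = 9.48e-06). Of 7 Egfr probe sets, 3 rose in NRAS-off tumours by 0.80 to 1.79, and the other 4 did not pass and lay between −0.08 and 0.05. In MEKi tumours 2 of the 7 rose. The probe set 1460420_a_at, which rose in NRAS-off tumours, differed here by 0.09 ± 0.07 (not passed, adjusted p = 0.374 over all probe sets). With all 7 averaged, the rise was 0.58 in NRAS-off and 0.19 in MEKi tumours.

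Several ligands of EGFR changed in the opposite direction. Hbegf, an EGF-like ligand shed from the cell surface, had 763 to 1509 (median 1087) in NRAS-off tumours, 1987 to 2324 (median 2111) in MEKi tumours and 5632 to 6362 (median 5886) in vehicle tumours. It fell by 2.43 ± 0.12 in NRAS-off and by 1.47 ± 0.12 in MEKi tumours. Btc, which encodes betacellulin, fell by 2.54 ± 0.17 and 1.96 ± 0.17, and Tgfa fell by 0.57 ± 0.13 in NRAS-off tumours, with a MEKi difference of −0.15 ± 0.13 (adjusted p = 0.381). Egf rose by 0.27 ± 0.08 in NRAS-off and by 0.22 ± 0.08 in MEKi tumours at intensities below 70. Errfi1, which encodes an inhibitor of the EGFR kinase, fell by 0.89 ± 0.10 in MEKi tumours and differed by 0.16 ± 0.10 in NRAS-off tumours (adjusted p = 0.206). Its direct difference between NRAS-off and MEKi tumours was 1.05 ± 0.10 (adjusted p = 1.44e-07). Beside the Egfr rise, 9 of 10 fibroblast markers rose in NRAS-off tumours and 6 of 10 in MEKi tumours. Their summed intensity was 179500 to 211500 in NRAS-off, 121200 to 127900 in MEKi and 76780 to 94630 in vehicle tumours, and their part in the Egfr result was not tested. In the tumour with the most keratinocyte transcript Egfr was the lowest of the NRAS-off group, and without it the rise was 1.86.

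Erbb2 and Erbb3 work as a pair: ERBB2 has no known ligand of its own, and ERBB3 binds neuregulins but has little kinase activity. Erbb3 had 3260 to 4632 (median 3418) in NRAS-off tumours, 6069 to 6835 (median 6357) in MEKi tumours and 4430 to 6017 (median 5367) in vehicle tumours. Every MEKi tumour lay above every vehicle tumour, and 5 of the 6 NRAS-off tumours lay below every vehicle tumour. Erbb3 fell by 0.56 ± 0.08 in NRAS-off tumours (adjusted p = 7.08e-06), rose by 0.27 ± 0.08 in MEKi tumours (adjusted p = 0.0103), and was lower by 0.84 ± 0.08 in NRAS-off than in MEKi tumours (−0.84, adjusted p = 9.26e-08). The second Erbb3 probe set, with intensities of 33.3 to 49.5, fell by 0.21 ± 0.06 in NRAS-off tumours and did not pass in MEKi tumours (−0.08 ± 0.06, adjusted p = 0.384). With the mean of both probe sets the MEKi rise did not pass (0.10, adjusted p = 0.227, in a range of 0.00391 to 0.227 over the alternatives for this value).

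Erbb2 followed the same order, with smaller differences than Erbb3 in the 2 comparisons that use the NRAS-off group. Its 1 probe set had 167 to 249 (median 176) in NRAS-off tumours, 261 to 322 (median 278) in MEKi tumours and 199 to 272 (median 233) in vehicle tumours. NRAS-off and MEKi tumours did not overlap, while both overlapped the vehicle tumours. Erbb2 fell by 0.30 ± 0.09 in NRAS-off tumours (adjusted p = 0.00624) and rose by 0.27 ± 0.09 in MEKi tumours (adjusted p = 0.0169), and the NRAS-off minus MEKi difference was −0.57 ± 0.09 (adjusted p = 2.49e-05). NRAS-off replicate 2 held the highest Erbb2 (249 against 167 to 179 in the other 5) and Erbb3 (4632 against 3260 to 3605). Without it Erbb2 fell by 0.38 and Erbb3 by 0.64 against vehicle. Of the neuregulin genes, Nrg1 and Nrg3 did not pass the low-value filter, Nrg4 did not pass the test in any comparison, and Nrg2 fell by 0.15 ± 0.06 in NRAS-off tumours (adjusted p = 0.0446). Schwann cells, which also use ERBB3, had 3 of 6 tested markers up in NRAS-off and 5 of 6 up in MEKi tumours. The summed intensity of the markers was 19870 to 24580 in NRAS-off, 24750 to 30100 in MEKi and 13640 to 17610 in vehicle tumours. Most of it came from Sox10 (means of 9564, 13050 and 9200) and Cdh19 (means of 7938, 8529 and 3662). Sox10 also stands in the melanocytic list, so the sum does not read Schwann cells alone. The part of these markers in the Erbb3 result was not tested.

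Met, the receptor for hepatocyte growth factor, fell in NRAS-off tumours, and by the highest-mean probe sets this was the largest fall of the 10 genes. With the probe sets of each gene averaged, Met fell by 0.68 and Pdgfra by 1.03. The Met intensity was 90.2 to 181 (median 131) in NRAS-off tumours, 294 to 545 (median 453) in MEKi tumours and 289 to 632 (median 343) in vehicle tumours. The NRAS-off tumours all lay below the others, and the MEKi and vehicle ranges overlapped over most of their length. Met fell by 1.42 ± 0.18 in NRAS-off tumours (adjusted p = 1.18e-06), a level 2.68-fold lower than in vehicle, and the NRAS-off minus MEKi difference was −1.67 ± 0.18 (adjusted p = 2.55e-07). In MEKi tumours the difference was 0.25 ± 0.18 (95% confidence interval −0.12 to 0.62, adjusted p = 0.266). Vehicle replicate 2, at 632 against 289 to 372 in the other 5, decided this last value: without it Met rose by 0.40 in MEKi tumours (adjusted p = 0.0349, in a range of 0.0349 to 0.447 over the alternatives). The second Met probe set lay below the low-value filter and passed in no comparison. Hgf, the ligand, had 70.5 to 95.8 (median 90.1) in NRAS-off tumours, 48.8 to 66.3 (median 60.3) in MEKi tumours and 32.0 to 62.6 (median 55.6) in vehicle tumours. It rose by 0.57 ± 0.10 in NRAS-off tumours and differed by 0.12 ± 0.10 in MEKi tumours (adjusted p = 0.388), so receptor and ligand changed in opposite directions when NRAS was switched off. Gab1, the docking protein that carries MET signals, rose by 1.52 ± 0.09 in NRAS-off and by 2.10 ± 0.09 in MEKi tumours.

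Met and Axl, which both fell by more than 1 in NRAS-off tumours, are shown with 250 bases before 1 annotated start of each gene. The sequences run 5′ to 3′ on the strand of the gene (RefSeq, GRCm38.p6, chr6:17463707-17463956 for Met on the plus strand and chr7:25788734-25788983 for Axl on the minus strand). The genes span 17463349 to 17573980 (Met) and 25756500 to 25788924 (Axl). The Met window thus lies inside the span of its gene and the Axl window mostly inside. Neither start is the outer end of the span. Capitals mark matches on either strand to 4 motifs, the AP-1 motif TGANTCA, the ETS motif CCGGAAGT, the E-box CACGTG and the FOXO motif GTAAACA. None of the matches shown overlaps another.
Met: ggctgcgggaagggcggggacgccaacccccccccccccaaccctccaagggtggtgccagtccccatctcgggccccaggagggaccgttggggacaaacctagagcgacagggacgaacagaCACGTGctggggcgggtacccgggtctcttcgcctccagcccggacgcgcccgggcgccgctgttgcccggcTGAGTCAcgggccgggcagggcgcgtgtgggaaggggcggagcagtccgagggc
Axl: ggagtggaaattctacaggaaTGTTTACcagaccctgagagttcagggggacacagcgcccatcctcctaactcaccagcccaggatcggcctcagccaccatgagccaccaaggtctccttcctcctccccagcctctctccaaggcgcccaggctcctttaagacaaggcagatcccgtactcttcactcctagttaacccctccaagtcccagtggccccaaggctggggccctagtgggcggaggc
The Met window holds 1 E-box and 1 AP-1 match, and the Axl window holds 1 FOXO match on the opposite strand. Of the 8 receptor genes with a promoter in the table, 1 had the AP-1 motif, 1 the E-box, 1 the FOXO motif and 0 the ETS motif. Over 32851 promoter windows of this length the shares were 6.75%, 6.02%, 3.17% and 2.88%. A match is only a match of letters.

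Ret, the receptor for GDNF and its relatives, fell to a low level in both treated groups. Its intensity was 31.7 to 46.4 (median 43.1) in NRAS-off tumours, 35.4 to 45.7 (median 38.6) in MEKi tumours and 56.0 to 188 (median 94.6) in vehicle tumours. Every treated tumour lay below every vehicle tumour, and the vehicle tumours were the most spread. Ret fell by 1.07 ± 0.18 in NRAS-off tumours (adjusted p = 4.51e-05) and by 1.12 ± 0.18 in MEKi tumours (adjusted p = 4.94e-05). The NRAS-off minus MEKi difference was 0.06 ± 0.18 with a 95% confidence interval of −0.32 to 0.43 (adjusted p = 0.82). Both treated groups lay close to the low-value filter (intensity 23.5), so this comparison could show little difference between them. The second Ret probe set passed in no comparison (NRAS-off minus vehicle −0.17 ± 0.08, adjusted p = 0.0764, and MEKi minus vehicle −0.15 ± 0.08, adjusted p = 0.138). Some of its partners changed and others did not pass. Gdnf had 554 to 932 (median 710) in NRAS-off tumours, 1482 to 1783 (median 1537) in MEKi tumours and 1746 to 3189 (median 2374) in vehicle tumours, and fell by 1.69 ± 0.13 and 0.56 ± 0.13. Gfra1, the co-receptor that binds GDNF, fell by 1.89 ± 0.10 in NRAS-off and by 0.61 ± 0.10 in MEKi tumours, whereas Gfra2, the co-receptor for neurturin, rose by 1.17 ± 0.16 and 1.28 ± 0.16. The ligand genes Nrtn and Artn and the co-receptor genes Gfra3 and Gfra4 passed in no comparison, with Artn at 0.52 ± 0.22 in MEKi tumours (adjusted p = 0.0561).

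Axl, a receptor for GAS6, was high in the vehicle tumours and lower in both treated groups. Its intensity was 2678 to 3190 (median 2995) in NRAS-off tumours, 3093 to 4078 (median 3703) in MEKi tumours and 5549 to 7302 (median 5858) in vehicle tumours. All 12 treated tumours lay below all vehicle tumours, while NRAS-off and MEKi tumours overlapped. Axl fell by 1.02 ± 0.07 in NRAS-off tumours (2.02-fold lower than in vehicle, adjusted p = 1.15e-09) and by 0.70 ± 0.07 in MEKi tumours (1.63-fold lower, adjusted p = 3.96e-07). The NRAS-off minus MEKi difference was −0.31 ± 0.07 (adjusted p = 0.00182). Gas6, its ligand, changed in the opposite direction, with 1888 to 3671 (median 2517) in NRAS-off tumours, 1292 to 2306 (median 1582) in MEKi tumours and 576 to 1222 (median 831) in vehicle tumours. It rose by 1.61 ± 0.20 in NRAS-off and by 1.00 ± 0.20 in MEKi tumours. Pros1, which encodes protein S, a ligand of the related receptors TYRO3 and MERTK, rose by 0.44 ± 0.07 in MEKi tumours. Mertk rose by 0.39 ± 0.10 in NRAS-off tumours (adjusted p = 0.00349), and Tyro3 passed in no comparison. Macrophages can carry AXL and MERTK. All 10 macrophage markers rose in NRAS-off tumours and 8 of 10 fell in MEKi tumours, with a summed intensity of 43230 to 60930 in NRAS-off, 8508 to 19360 in MEKi and 17510 to 27960 in vehicle tumours. Their part in the Axl result was not tested.

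Kit and Pdgfra lie near each other on chromosome 5 and encode related receptors, for stem cell factor and for the PDGF ligands. Kit was measured at low intensity, 96.3 to 134 (median 109) in NRAS-off tumours, 51.9 to 81.4 (median 67.0) in MEKi tumours and 72.6 to 93.8 (median 84.5) in vehicle tumours. Every NRAS-off tumour lay above every vehicle tumour, and MEKi and vehicle tumours overlapped. Kit rose by 0.36 ± 0.10 in NRAS-off tumours (adjusted p = 0.00354) and fell by 0.28 ± 0.10 in MEKi tumours (adjusted p = 0.027), and the NRAS-off minus MEKi difference was 0.64 ± 0.10 (adjusted p = 2.38e-05). The MEKi fall did not pass without any 1 of vehicle replicates 1, 2 and 3 or MEKi replicates 2, 3 and 4 (−0.26 to −0.22, adjusted p = 0.0531 to 0.0723, in a range of 0.0114 to 0.0723 over all alternatives). The second Kit probe set lay below the low-value filter and passed in no comparison. Kitl, which encodes stem cell factor, had 496 to 684 (median 587) in NRAS-off tumours, 1042 to 1663 (median 1392) in MEKi tumours and 1227 to 2146 (median 1525) in vehicle tumours. It fell by 1.40 ± 0.12 in NRAS-off tumours and differed by −0.22 ± 0.12 in MEKi tumours (adjusted p = 0.175). Mast cells depend on KIT, and 5 of 10 mast cell markers rose and 2 fell in NRAS-off tumours, while 8 of 10 fell in MEKi tumours. The summed intensity of the list was 2002 to 3452 in NRAS-off, 588 to 1515 in MEKi and 1973 to 2973 in vehicle tumours, none of its members was listed at 0, and its part in the Kit result was not tested. Among them Cpa3, the mast cell carboxypeptidase, rose by 0.88 ± 0.28 in NRAS-off and fell by 0.99 ± 0.28 in MEKi tumours. The mast cell proteases Mcpt1 and Mcpt2 fell in both groups, Mcpt1 by 2.69 ± 0.23 in NRAS-off and 1.97 ± 0.23 in MEKi tumours, and Mcpt2 by 1.32 ± 0.54 and 1.45 ± 0.54.

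Pdgfra, the receptor alpha for platelet-derived growth factor, fell in both treated groups on all 3 of its probe sets. On the probe set with the highest mean the intensity was 3742 to 4873 (median 4741) in NRAS-off tumours, 3140 to 3922 (median 3606) in MEKi tumours and 4908 to 6605 (median 5679) in vehicle tumours. All treated tumours lay below all vehicle tumours. By this probe set Pdgfra fell by 0.36 ± 0.08 in NRAS-off tumours (adjusted p = 0.000701) and by 0.70 ± 0.08 in MEKi tumours (adjusted p = 1.05e-06). On 1438946_at the intensity was 131 to 175 (median 153) in NRAS-off tumours, 132 to 205 (median 171) in MEKi tumours and 334 to 516 (median 399) in vehicle tumours. This probe set fell by 1.34 ± 0.10 and 1.20 ± 0.10, and 1421916_at fell by 1.38 ± 0.10 and 1.26 ± 0.10, so the size of the fall differed between probe sets of the same gene. The order of the treated groups depended on the probe set as well. On the first, Pdgfra was higher in NRAS-off than in MEKi tumours by 0.34 ± 0.08 (adjusted p = 0.00176), and on the other 2 the difference did not pass (−0.14 ± 0.10 and −0.12 ± 0.10, adjusted p = 0.357 and 0.42 over all probe sets). With the mean of the probe sets it was 0.03 (adjusted p = 0.815), and the adjusted p ranged from 0.00034 to 0.815 over the alternatives. Fibroblasts commonly carry PDGFRA, and the fibroblast markers, with the summed intensities given beside Egfr, rose in 9 of 10 cases and fell in 1 in NRAS-off tumours, and rose in 6 of 10 in MEKi tumours. Their part in the Pdgfra result was not tested. The related receptor gene Pdgfrb, one of those markers, rose by 0.39 ± 0.10 in NRAS-off tumours and differed by −0.15 ± 0.10 in MEKi tumours (adjusted p = 0.252). Of the ligands, Pdgfa had 763 to 1082 (median 928) in NRAS-off tumours, 1973 to 2870 (median 2424) in MEKi tumours and 2844 to 3503 (median 3195) in vehicle tumours. It fell by 1.80 ± 0.10 and 0.41 ± 0.10, whereas Pdgfc rose by 1.04 ± 0.18 and 0.83 ± 0.18.

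Ntrk2 encodes TRKB, the receptor for the neurotrophin BDNF, and rose in the NRAS-off tumours. Its main probe set had 269.8 to 534 (median 426) in NRAS-off tumours, 117 to 160.2 (median 139) in MEKi tumours and 111 to 151 (median 125) in vehicle tumours. The NRAS-off tumours all lay above the others, and MEKi and vehicle tumours overlapped over nearly their whole range. Ntrk2 rose by 1.51 ± 0.15 in NRAS-off tumours (2.85-fold, adjusted p = 6.06e-08) and was higher by 1.43 ± 0.15 in NRAS-off than in MEKi tumours (adjusted p = 2.1e-07). In MEKi against vehicle tumours the difference was 0.07 ± 0.15 (95% confidence interval −0.24 to 0.39, adjusted p = 0.727). Of 8 Ntrk2 probe sets, 2 rose in NRAS-off tumours. The second of these, 1435196_at, had 273 to 682 (median 475) in NRAS-off tumours, 53.2 to 90.5 (median 75.9) in MEKi tumours and 38.2 to 72.0 (median 62.5) in vehicle tumours, a rise of 2.66 ± 0.20 against vehicle. With all 8 averaged, the rise was 0.53. The other 6 did not pass against vehicle, and 4 of the 8 lay below the low-value filter. Bdnf, the ligand, had 111 to 245 (median 188) in NRAS-off tumours, 309 to 583 (median 339) in MEKi tumours and 285 to 418 (median 339) in vehicle tumours. It fell by 0.91 ± 0.19 in NRAS-off tumours, opposite to its receptor, and differed by 0.19 ± 0.19 in MEKi tumours (adjusted p = 0.453). Ngfr, the p75 neurotrophin co-receptor that also marks neural crest cells, rose by 0.38 ± 0.12 in NRAS-off tumours (adjusted p = 0.0109). Cells of nerve and stroma can carry TRKB. The Schwann cell marker Scn7a rose by 2.53 ± 0.21 in NRAS-off and by 1.09 ± 0.21 in MEKi tumours. It was the only 1 of 6 tested Schwann cell markers called higher in NRAS-off than in MEKi tumours, and 3 were lower. Among all genes tested 24.3% were higher and 22.7% lower. The whole list is given beside Erbb3, and the part of these markers in the Ntrk2 result was not tested.

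Igf1r, the receptor for insulin-like growth factors, had its highest level in the MEKi tumours. Its intensity was 885 to 1359 (median 989.8) in NRAS-off tumours, 1496 to 2084 (median 1703) in MEKi tumours and 1012 to 1384 (median 1255) in vehicle tumours. MEKi tumours overlapped neither of the other groups, and NRAS-off and vehicle tumours overlapped. Igf1r rose by 0.48 ± 0.10 in MEKi tumours (adjusted p = 0.000395) and was lower in NRAS-off than in MEKi tumours (−0.74 ± 0.10, adjusted p = 3.17e-06). Against vehicle it fell by 0.26 ± 0.10 in NRAS-off tumours (adjusted p = 0.0269). This call did not pass without any 1 of vehicle replicates 3 and 5 or NRAS-off replicates 1, 5 and 6 (−0.24 to −0.21, adjusted p = 0.0512 to 0.0691, in a range of 0.000893 to 0.0691 over all alternatives). Without NRAS-off replicate 2, whose 1359 was above the 885 to 1037 of the other 5, the fall was 0.33 (−0.33, adjusted p = 0.00157). Of 5 Igf1r probe sets 4 fell in NRAS-off and 4 rose in MEKi tumours, and all 5 were lower in NRAS-off than in MEKi tumours.

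The ligand Igf1 had 6079 to 10370 (median 9076) in NRAS-off tumours, 2611 to 3304 (median 2958) in MEKi tumours and 1464 to 2530 (median 2032) in vehicle tumours. It rose by 2.10 ± 0.14 and 0.59 ± 0.14, with no overlap of either treated group with vehicle. Igfbp3, the binding protein that holds IGFs in the circulation and tissue, fell by 4.23 ± 0.13 in NRAS-off tumours and by 1.93 ± 0.13 in MEKi tumours. Igfbp2 fell by 2.40 ± 0.46 in NRAS-off tumours and differed by −0.93 ± 0.46 in MEKi tumours (adjusted p = 0.11). Igfbp6 changed the other way, with a rise of 2.12 ± 0.25 in NRAS-off tumours (adjusted p = 6.8e-07) and a difference of 0.30 ± 0.25 in MEKi tumours (adjusted p = 0.365). Of the 6 IGF binding protein genes tested, 3 rose and 3 fell in NRAS-off tumours, and 2 rose and 2 fell in MEKi tumours. Irs2, an adaptor of the IGF1 and insulin receptors, fell by 0.83 ± 0.10 in NRAS-off tumours, while Irs1 rose by 0.49 ± 0.07 in NRAS-off and by 0.61 ± 0.07 in MEKi tumours.

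**Figure D3:**
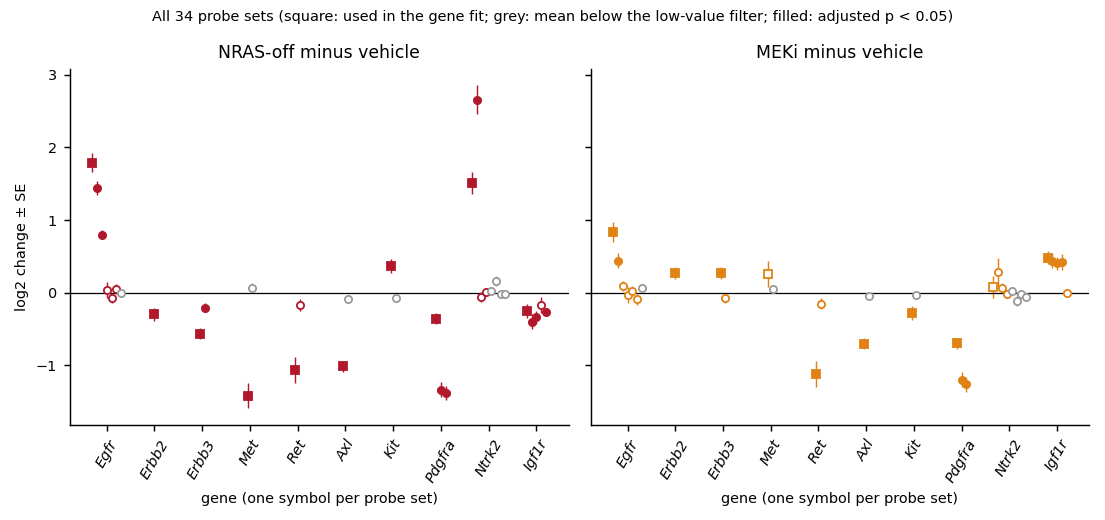
Log2 change and SE of all 34 probe sets of the 10 genes in NRAS-off minus vehicle (left) and MEKi minus vehicle (right). Squares are the probe sets used for the gene, grey points had a mean below the low-value filter, and filled points passed an adjusted p of 0.05. No probe set passed in the direction opposite to its gene's.

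By probe set, 6 rose and 13 fell of 34 in NRAS-off tumours, 8 rose and 6 fell in MEKi tumours, and 8 were higher and 9 lower in NRAS-off than in MEKi tumours. These are 55.9%, 41.2% and 50.0% of the receptor probe sets, beside 46.5%, 34.1% and 34.3% of all 34945 probe sets with 1 symbol, and 8 of the 34 lay below the low-value filter. In the plot of all probe sets, the 3 of Pdgfra fell in both comparisons with vehicle. Of the 5 of Igf1r, 4 rose in MEKi tumours and the other, 1452108_at, lay at −0.01 ± 0.05. The probe sets that did not pass in MEKi tumours included those of Met at 0.25 and of Ntrk2 (1435196_at) at 0.28, about the size of the called Erbb2 and Erbb3 changes of 0.27.

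The genes around the receptors were read from 4 lists. Of 27 ligand genes 21 were tested: 6 rose and 9 fell in NRAS-off tumours (median −0.01), and 5 rose and 6 fell in MEKi tumours (median −0.01). Over all genes tested, 31.8% rose and 27.5% fell in NRAS-off tumours, and 24.3% rose and 20.9% fell in MEKi tumours. The largest ligand change was that of Ereg, which encodes epiregulin and fell by 5.09 ± 0.31 and 3.73 ± 0.31. Of 24 co-receptors and related receptors 22 were tested, and 8 rose and 4 fell in NRAS-off tumours (median 0.02), against 3 and 3 in MEKi tumours (median −0.04). Epha2, an ephrin receptor, fell by 1.27 ± 0.12 in NRAS-off and by 0.50 ± 0.12 in MEKi tumours. Csf1r, the macrophage growth factor receptor, rose by 1.39 ± 0.14 in NRAS-off tumours. In MEKi tumours Csf1r differed by 0.03 ± 0.14 (adjusted p = 0.896). Of 24 adaptors 23 were tested, and 13 rose and 2 fell in NRAS-off tumours (median 0.27), against 10 and 2 in MEKi tumours (median 0.17). Besides Gab1, Grb10 rose by 1.09 ± 0.12 in NRAS-off tumours, and Grb14 rose by 1.13 ± 0.13 in MEKi tumours. The Grb10 intensity was 2234 to 3667 in NRAS-off, 2030 to 2485 in MEKi and 1034 to 1620 in vehicle tumours. For Grb14 it was 194 to 339 in NRAS-off, 337 to 467 in MEKi and 126 to 228 in vehicle tumours. Pik3cb, a catalytic subunit of PI3 kinase, fell by 1.85 ± 0.08 in NRAS-off and by 1.45 ± 0.08 in MEKi tumours. All 27 negative regulators were tested, and 9 rose and 10 fell in NRAS-off tumours (median 0.02), against 7 and 10 in MEKi tumours (median −0.14). Sh3kbp1, which acts in the uptake of activated receptors, fell by 1.46 ± 0.07 and 0.74 ± 0.07, and Socs5 fell by 1.45 ± 0.07 and 1.05 ± 0.07. Lrig3 rose by 1.41 ± 0.12 in NRAS-off tumours. Its intensity was 363.1 to 440.5 in NRAS-off, 276.7 to 299.3 in MEKi and 88.1 to 184.3 in vehicle tumours.

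**Figure D4:**
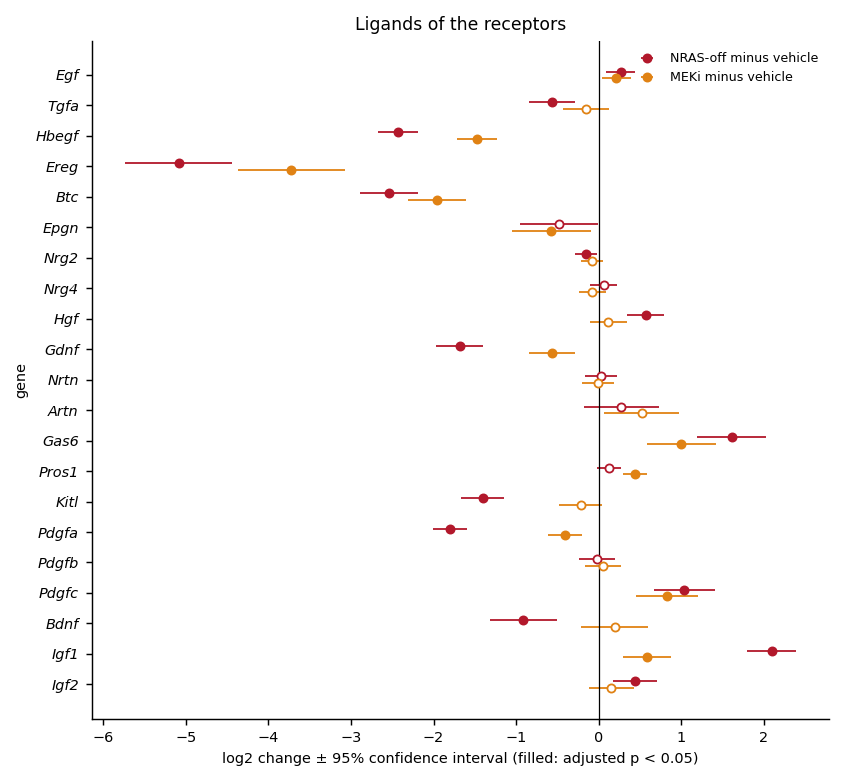
Log2 change with 95% confidence interval of the 21 tested ligand genes (rows) in NRAS-off minus vehicle and MEKi minus vehicle. Filled points passed an adjusted p of 0.05. Ereg, Btc and Hbegf lie far left in both comparisons, and Igf1 and Gas6 lie to the right.

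**Figure D5:**
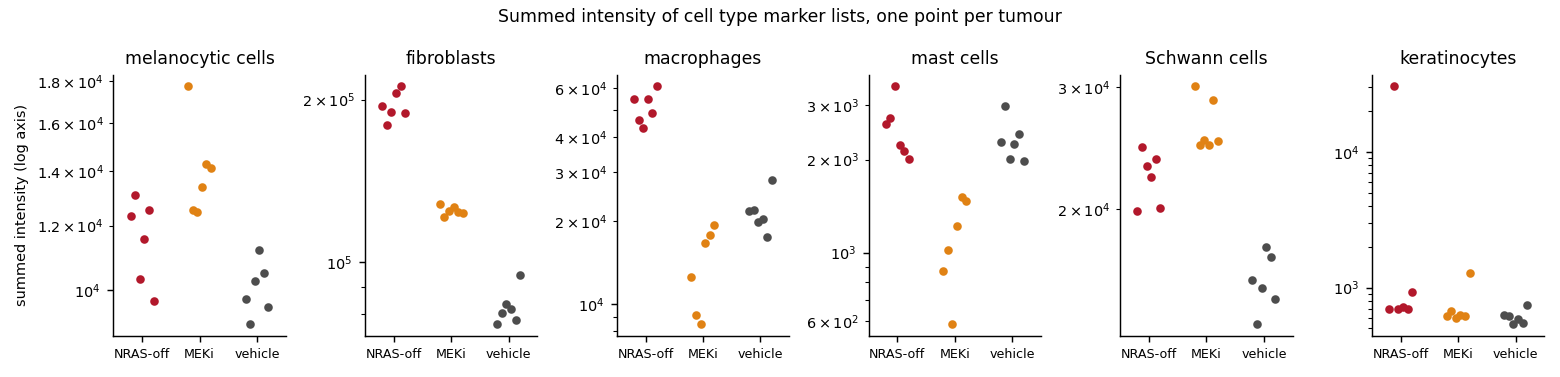
Summed intensity, on a log axis, of 6 cell type marker lists in NRAS-off, MEKi and vehicle tumours, with 1 point per tumour. Fibroblast and macrophage sums are highest in NRAS-off tumours, and NRAS-off replicate 2 stands apart at 30350 in the keratinocyte panel.

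The genes most like each receptor were taken by the Pearson correlation of their deviations from the group means over the 18 tumours. This is a description: the 18 points come from the same arrays, and 15004 other genes were searched for each receptor. Met varied most like Lratd2 (0.938) and Cnr1 (0.87), and Ret most like Phf23 (0.932) and Prss22 (0.859). For Erbb3 the closest were Atp9a (0.897) and Zfp523 (0.882), for Erbb2 Mocos and Itga7 (both 0.845). Ntrk2 was closest to Cd8a (0.879) and Dok2 (0.873), and Egfr to Nosip (0.869) and Pigo (0.845). Igf1r varied most like Cic (0.853) and Smarcc2 (0.849), and Kit like Gsn (0.84) and Sbf1 (0.83). The lowest best values were those of Axl, with Cop1 (0.823) and Tex21 (0.813), and of Pdgfra, with Cyth3 (0.804) and Fam243 (0.737).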

How the data were processed

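Per the labels' protocols, about 50 mg of each tumour went into RNAlater, Trizol was used to extract RNA, and Affymetrix one-colour arrays received 10 ug as biotin-labelled target. The deposited intensity values of 45037 probe sets had been summarised and brought to a common scale by the authors. The submitters' processing notes name MAS5 and RMA, with no version, and do not say which of them gave the table. Values were read as linear because they ran from 7.37 to 44480. With another transformation, changes would be on another scale. Depth does not apply to arrays, and their number limits the precision.

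Of the probe sets, 34945 had 1 gene symbol in the platform annotation, 932 had several and 9160 had no entry. The probe set with the highest mean stood for a gene. The scale was log2(intensity + 16). A gene entered the test when its mean exceeded the 25th percentile of the probe set means (intensity 23.5), which 15005 did. One limma fit (version 3.58.1, R 4.3.3) held all 3 groups (15 residual degrees of freedom) with Benjamini-Hochberg adjustment over all genes within each comparison. A second fit held every probe set with 1 symbol, without the filter, and adjusted over these. Confidence intervals are 95% intervals of the fit. A simulated NRAS-off minus vehicle comparison of 15005 genes was listed with 200 changed genes for each size. The fit recovered 88%, 96% and 100% of genes raised 1.5-fold, 2-fold and 4-fold, with 13 false calls. In the tumours 59.3% of genes were called, a far larger share, so the number of false calls does not carry over to them.

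The replicate numbers of the labels were not used to pair tumours in the main fit. Correlations of deviations of same-numbered tumours lay between −0.136 and 0.273, and 8 of 18 were above 0.1. They were not set against those of differently numbered tumours, so they do not decide whether the numbers pair tumours. The members, gene lists, marker lists and motifs were chosen with earlier results of these data known. Sox10 stands in the melanocytic and Schwann cell lists, and Pdgfrb, Csf1r and Gfra3 stand in a marker list and in a receptor list. Mcpt5 was matched as Cma1. The text names all 10 receptors and the 2 genes most like each, tested ligands, list genes called with a change over 1, up to 3 markers of a list, and Nras. Gfra3, Gfra4, Mertk, Tyro3, Pdgfrb, Ngfr, Irs1 and Irs2 fall outside this rule and were named as partners of a receptor after their values were seen. Matplotlib 3.10.9 in Python 3.11.15 drew the figures. Alternatives are given in the closing section.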

Additional observations from a re-analysis of the deposited data

Results flagged for a closer look

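Of 30 groups of 6 values (10 receptors in 3 groups), 6 held a tumour whose gap to its nearest neighbour took up most of the group's range, where chance marks about 1 in 20. In NRAS-off replicate 2, the Erbb2 intensity was 248.9 where the other 5 of its group had 166.8 to 179.2, Erbb3 had 4632 against 3260 to 3605, and Igf1r had 1359 against 885.4 to 1037. The same tumour held the most keratinocyte transcript, and the part of this in the 3 values was not tested. In NRAS-off replicate 4, Ret had 31.66 against 40.81 to 46.39. In vehicle replicate 2, Met had 632.1 against 288.7 to 371.8. In vehicle replicate 1, Axl had 7302 against 5549 to 6082.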

How the results depend on the processing

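The alternatives were a filter at the 50th percentile or none, averaging a gene's probe sets or taking the most variable one, pseudocounts of 1 and 64, median centring, quantile normalization, a trended robust prior, only the 2 groups compared, a replicate block, and leaving out each tumour. Omitting NRAS-off replicate 2 and MEKi replicate 6, highest in keratinocyte transcript, was added after seeing the data. All 144 counts of genes or receptors called stayed within 1.5 times the reported count. At the 50th percentile Ret was not tested. Of 717 receptor values under these alternatives, 701 kept their direction and side of the threshold, 14 no longer passed, 1 newly passed (Met in MEKi tumours) and 1 changed sign. Sizes depended more on the probe set: averaging moved 20 called changes by over 1.5 times, the most variable probe set 6 and a pseudocount of 64 moved 3. Over the alternatives the NRAS-off change ran from 0.58 to 1.90 for Egfr, 0.53 to 2.66 for Ntrk2, −1.52 to −0.68 for Met and −1.38 to −0.31 for Pdgfra, and the MEKi change of Egfr from 0.19 to 0.94. The sign change was Pdgfra in NRAS-off minus MEKi with the most variable probe set (−0.12, limma adjusted p = 0.374), because that setting reads another probe set. The values that no longer passed were those of Erbb3 and Kit in MEKi tumours, Igf1r in NRAS-off tumours and Pdgfra between the treated groups, given in the report. With the replicate block 8728 genes passed in NRAS-off minus vehicle, and Igf1r did not (−0.26, limma adjusted p = 0.0541). The block changed no other receptor call. Signal close to the low-value filter limits Ret, Kit and the second probe sets of Met, Axl, Kit and Erbb3.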

Other observations

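The receptors also varied between tumours of 1 group. Over the 18 tumours, with the group means removed, 45 pairs of receptors were compared by 100000 permutations of tumours within groups. No pair passed an adjusted p of 0.05, and 4 had an unadjusted permutation p under 0.05. Erbb2 and Erbb3 had a Pearson r of 0.83 and a Spearman rho of 0.66 (permutation p = 0.0026 and 0.0076, Benjamini-Hochberg adjusted p = 0.12 and 0.21 over the 45 pairs). Within the groups r was 0.96 in NRAS-off, 0.16 in MEKi and 0.83 in vehicle tumours. Without the 2 tumours farthest from the median of Erbb2, r was 0.55. Igf1r varied with Erbb2 (r of 0.63, permutation p = 0.024, adjusted p = 0.27) and with Erbb3 (r of 0.67, permutation p = 0.019, adjusted p = 0.27). Without the 2 tumours farthest from the median of Erbb2 or of Erbb3, these were 0.38 and 0.21. NRAS-off replicate 2, which stood apart in Erbb2, Erbb3 and Igf1r, was among the 2 tumours left out for each of these values. Leaving out this tumour alone was not tested for these relations. Met and Ntrk2 varied in opposite directions, with r of −0.55 and rho of −0.60 (permutation p = 0.0057 and 0.0095, adjusted p = 0.13 and 0.21), and r of −0.68 in NRAS-off, −0.88 in MEKi and −0.43 in vehicle tumours. Without the 2 tumours farthest from the median of Met, r was −0.62.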
